A study of Homo sapiens with 6 samples.

Results

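The genes of the E2F and DP transcription factors were examined in MDA-MB-453 cells after siRNA against *DUSP6*. They are the 10 of 22807 genes in the expression table whose symbol is *E2F1* to *E2F8*, *TFDP1* or *TFDP2*. E2F factors bind DNA at the promoters of genes for DNA replication and the cell cycle, most of them together with a DP protein, encoded by *TFDP1* or *TFDP2*. *E2F1*, *E2F2* and *E2F3* are known as activators that the retinoblastoma protein RB holds in check until cyclin-dependent kinases phosphorylate it. *E2F4* and *E2F5* are known as repressors that act with the RB relatives encoded by *RBL1* and *RBL2*. *E2F6* represses with Polycomb proteins, while *E2F7* and *E2F8* repress without a DP partner, and *E2F6* to *E2F8* are grouped here as atypical E2Fs. In breast cancer, as in other tumors, activator E2Fs are best known for driving the entry into S phase.

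MDA-MB-453 is an established HER2+ breast cancer cell line. Messenger RNA of the cells, kept in RPMI with serum, was sequenced in 6 libraries, and the question was what lowering *DUSP6*, a phosphatase that inactivates ERK, changes in their transcripts. The SCR group holds 3 libraries of wild-type cells with scrambled control siRNA, and the DUSP6_KD group holds 3 libraries of cells with transient *DUSP6* siRNA. The study describes several different siRNAs in each group, but the labels do not tie a given siRNA to a library. Libraries with the same label therefore served as replicates, and p-values measure the spread between these libraries. The time from transfection to harvest is not given in the sources used here.

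The libraries held between 45546981 and 85729785 reads assigned to genes, and 1 read was worth a normalized value between 0.0121 and 0.0202. A member had between 620 and 11096 reads in a library. The targeted *DUSP6* had normalized values of 209, 110 and 114 in SCR replicates 1 to 3 and of 39.4, 24.5 and 35.2 in DUSP6_KD replicates 1 to 3, without overlap (log2 fold change -2.05, standard error 0.25, limma adjusted p = 3.09e-04). Of the 8 luminal apocrine markers checked, all passed the filter on low values, and their summed value ranged from 3971 to 5292 with scrambled siRNA and from 2908 to 3109 with *DUSP6* siRNA, with 6 lower, 1 higher and the *EPCAM* call missing the threshold. Summed leukocyte markers stayed at 0.162 or below and summed endothelial markers at 0.402 or below in each library. Among fibroblast markers *COL1A1* rose from 92.2 ± 12.2 to 173 ± 16.7 (SD, n = 3), while *COL1A2*, *COL3A1* and *PDGFRB* stayed at 0.268 or below. The part of these shifts in the results below was not tested.

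Promoter sequences of 5 members are shown first because several E2F genes are known to be controlled by E2F proteins themselves, and because members with E2F letters moved in different directions. RefSeq starts on GRCh38.p14 gave windows from 250 bases before to 50 after the start for 8 of the 10 members, 11 windows in all, with 2 starts for *E2F3* and 3 for *TFDP2*. *E2F5* and *E2F8* had none. The letters searched on both strands for E2F were TTTCCCGC, TTTGGCGC, TTTCGCGC, TTTGCCGC, TTTCCCGG, TTTGGCGG, TTTCGCGG and TTTGCCGG. CCAAT, known as the binding letters of NF-Y, and the cell cycle element CHR, searched as TTTGAA or TTCGAA, were added. Each stretch below runs 5′ to 3′ on the gene's strand from 130 bases before the start to base 20 of the transcript. Capitals mark E2F and CCAAT matches, and a match on the other strand appears as its complement read backwards. *E2F1* lies on the minus strand at chr20:33686366-33686515, *E2F2* on the minus strand at chr1:23531214-23531363, and the first start of *E2F3* on the plus strand at chr6:20401749-20401898. These are the activators, and each has E2F letters close to its start.
E2F1: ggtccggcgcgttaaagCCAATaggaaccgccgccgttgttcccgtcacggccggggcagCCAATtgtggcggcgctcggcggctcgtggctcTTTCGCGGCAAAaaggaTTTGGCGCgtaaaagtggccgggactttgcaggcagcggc
E2F2: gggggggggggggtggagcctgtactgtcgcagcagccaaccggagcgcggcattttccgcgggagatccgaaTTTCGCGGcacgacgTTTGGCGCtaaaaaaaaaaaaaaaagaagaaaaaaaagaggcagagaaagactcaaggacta
E2F3: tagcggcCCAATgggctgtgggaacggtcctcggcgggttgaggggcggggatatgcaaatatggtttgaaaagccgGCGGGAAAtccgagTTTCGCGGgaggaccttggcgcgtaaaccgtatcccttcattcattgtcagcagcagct
The *E2F6* stretch is on the minus strand at chr2:11466142-11466291 and the *E2F7* stretch on the minus strand at chr12:77065550-77065699. *E2F6* is shown as an atypical member with E2F letters, and *E2F7* as one with CCAAT alone.
E2F6: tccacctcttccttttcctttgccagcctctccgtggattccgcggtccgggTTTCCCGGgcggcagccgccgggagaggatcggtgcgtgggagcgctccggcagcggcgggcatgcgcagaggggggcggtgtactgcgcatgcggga
E2F7: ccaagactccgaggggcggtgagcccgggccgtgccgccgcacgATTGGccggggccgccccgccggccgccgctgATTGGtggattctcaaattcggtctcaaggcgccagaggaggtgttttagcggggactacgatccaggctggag

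In *E2F1* the E2F letters lay at -37 to -30 and, overlapping them on the other strand, at -33 to -26, with a further match at -20 to -13, where -1 is the last base before the start. CCAAT stood at -179, -113 and -70 in *E2F1*. *E2F2* had E2F matches beginning at -57 and -42 and no CCAAT. The first *E2F3* start had E2F matches beginning at -53 and -39, a CHR match at -65 and 4 CCAAT matches, and its second start had no match of any kind. *E2F6* had E2F matches beginning at -183, outside the stretch shown, and at -78. *TFDP1* had 1 at -120 and the first *TFDP2* start 1 at 19, while the other *TFDP2* starts had a CHR match each. *E2F7* had 4 CCAAT matches, beginning at -229, -167, -86 and -54, and no E2F letters. No searched letters were found in the *E2F4* window. Counting overlapping matches once, *E2F1*, *E2F2*, *E2F3* and *E2F6* had 2 E2F matches in a window. Of all 35116 RefSeq windows of this length 0.330% had at least 2 and 6.19% at least 1. E2F letters were more frequent among the 10119 tested genes with a window, members left out. By the first listed window, 973 of these had 1 match and 61 had 2 or more. CCAAT was far more common, with at least 1 match in 34.6% of windows and at least 2 in 10.6%, and CHR was in 16.4%. The map of matches shows each window to scale.

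**Figure D1:**
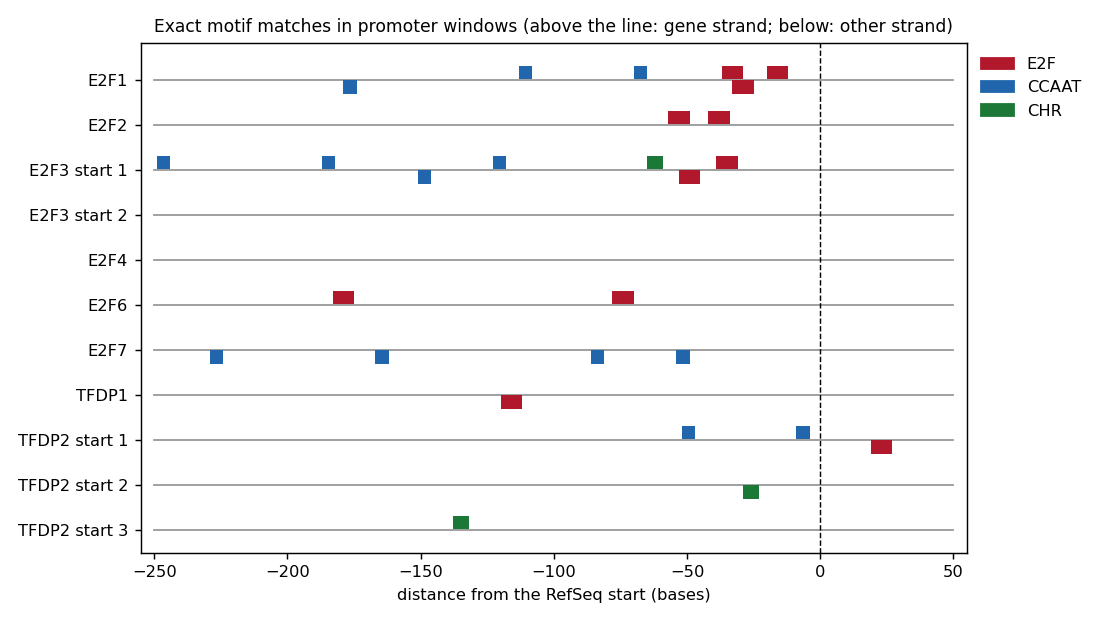
Exact letter matches in the 11 promoter windows of 8 members, by distance from the RefSeq start in bases (250 before to 50 after), with marks above a line on the gene's strand and below it on the other strand. E2F matches (red) lie within 60 bases before the start in *E2F1*, *E2F2* and the first start of *E2F3*, farther upstream in *E2F6* and *TFDP1*, and in none of the *E2F4* and *E2F7* windows.

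With *DUSP6* siRNA all 3 activator E2Fs were lower in the deposited values, and the calls among the other members went both ways. These values carry library scaling factors of 0.881 to 0.968 with scrambled and 1.08 to 1.09 with *DUSP6* siRNA. Small differences, such as those of *E2F3*, *TFDP1* and *TFDP2*, depend on this scaling, and scaling by total reads alone was not tested. All 10 members passed the filter on low values. At a limma adjusted p under 0.05, *E2F1*, *E2F2*, *E2F3* and *E2F8* fell, *E2F5* and *E2F6* rose, and *E2F4*, *E2F7*, *TFDP1* and *TFDP2* did not pass. That made 4 members lower and 2 higher, where 24.7% of the 12862 genes tested were called lower and 19.7% higher. Groups did not overlap in 5 members lower with *DUSP6* siRNA and 2 higher, beside 31.1% and 26.7% of all genes tested. The median log2 fold change over all genes tested was -0.01. In bulk RNA, fewer cells that carry a transcript and less of it per cell cannot be told apart. The plot of values by library shows all 10 members, and the plot of fold changes sets their 95% confidence intervals side by side.

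**Figure D2:**
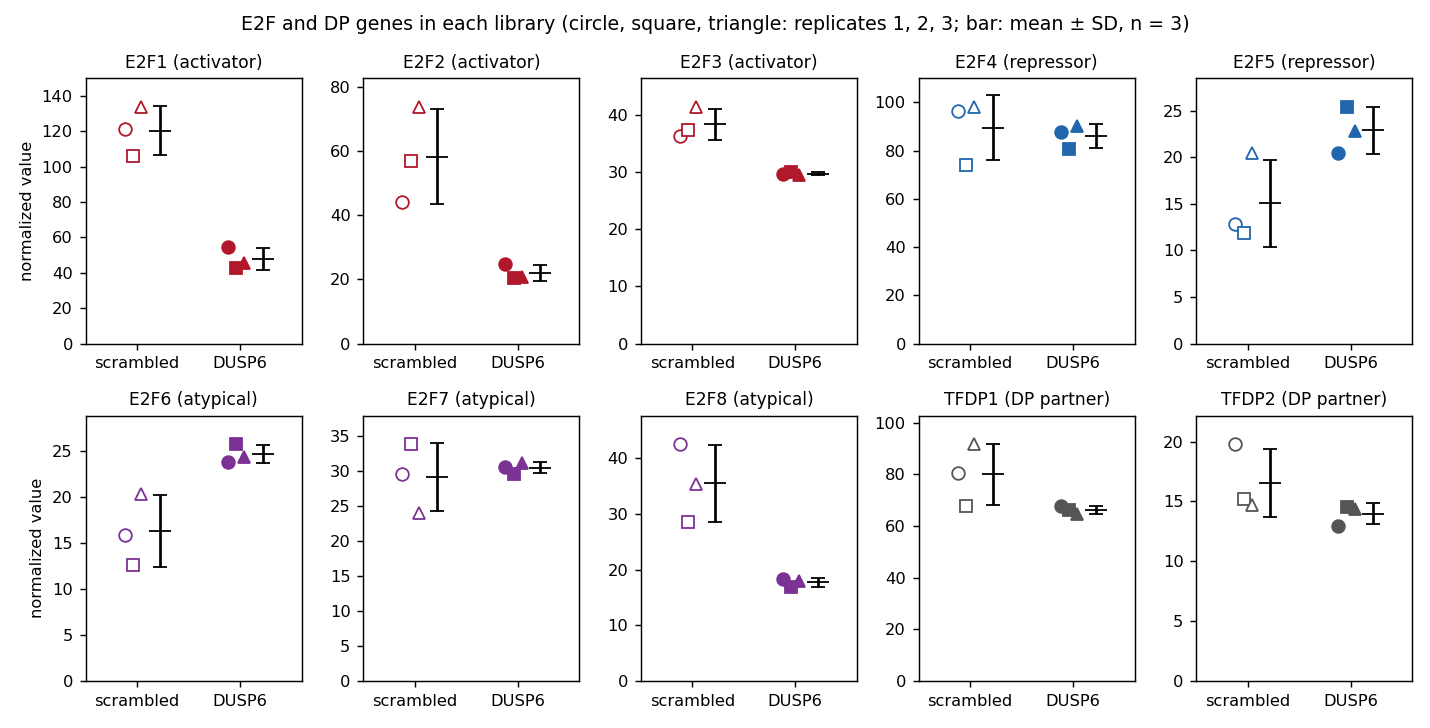
Normalized value of each E2F and DP gene in each library, with scrambled siRNA as open and *DUSP6* siRNA as filled symbols, replicates 1, 2 and 3 as circle, square and triangle, and the bar as mean ± SD (n = 3). The groups do not overlap for *E2F1*, *E2F2*, *E2F3*, *E2F8* and, narrowly, *TFDP2* (lower), nor for *E2F6* and, narrowly, *E2F5* (higher). The scrambled libraries straddle the *DUSP6* siRNA libraries for *E2F4* and *E2F7*.

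Among the activators, *E2F1* (Entrez gene 1869, chromosome 20 of GRCh38.p14 from 33675477 to 33686385) had normalized values of 121, 106 and 134 in SCR replicates 1 to 3 and 54.6, 42.7 and 45.6 in DUSP6_KD replicates 1 to 3. The lowest scrambled library stood above the highest *DUSP6* siRNA library by a wide margin. Its mean fell by 60.4%, from 120 ± 13.8 to 47.6 ± 6.20 (SD, n = 3), with a log2 fold change of -1.32 (95% confidence interval -1.60 to -1.04, limma adjusted p = 7.25e-05). *E2F2* (Entrez gene 1870, chromosome 1 from 23505212 to 23531233), the second activator, had 44.2, 56.9 and 73.8 with scrambled siRNA and 25.0, 20.4 and 20.7 with *DUSP6* siRNA. The scrambled libraries were widely spread and all lay above the others. Its mean fell by 62.2%, from 58.3 ± 14.8 to 22.0 ± 2.54 (SD, n = 3), with a log2 fold change of -1.34 (-1.73 to -0.95, limma adjusted p = 4.12e-04). *E2F1* and *E2F2* kept their calls in each of the 14 alternatives tried.

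*E2F3* (Entrez gene 1871, chromosome 6 from 20401879 to 20493714), which codes for an activator with a long and a short form from different starts, moved less. Its values were 36.3, 37.3 and 41.4 with scrambled siRNA and 29.8, 30.0 and 29.5 with *DUSP6* siRNA. On this scale the groups did not overlap, and the *DUSP6* siRNA libraries were within 1 unit of each other. The mean fell by 22.5%, from 38.4 ± 2.71 to 29.7 ± 0.242 (SD, n = 3), with a log2 fold change of -0.35 (-0.57 to -0.14, limma adjusted p = 0.0138). The call was lost without DUSP6_KD replicate 1 (limma adjusted p = 0.0563) and without DUSP6_KD replicate 3 (0.0666), in a range from 0.0114 to 0.0666 over the alternatives. Gene-level values do not separate the forms of *E2F3*, and RefSeq lists 2 pseudogenes of it, neither with a row in the table, so its value is uncertain to that extent. The same holds for *E2F4* with 1 pseudogene, *E2F6* with 4 and *TFDP1* with 3.

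Neither repressor was called lower. *E2F4* (Entrez gene 1874, chromosome 16 from 67192155 to 67198918), a repressor abundant in resting cells, had 96.4, 74.0 and 98.2 with scrambled siRNA and 87.7, 80.6 and 90.2 with *DUSP6* siRNA, so the groups overlapped. The log2 fold change was -0.04 (-0.32 to 0.23, limma adjusted p = 0.788), and the interval excludes a fall of the size seen in *E2F1*. The sign of this value was positive under quantile normalization (0.06) and without SCR replicate 1 (0.01), SCR replicate 3 (0.03) or DUSP6_KD replicate 2 (0.0025).

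*E2F5* (Entrez gene 1875, chromosome 8 from 85177154 to 85214518), the other repressor, had 12.9, 11.9 and 20.4 with scrambled siRNA and 20.4, 25.4 and 22.8 with *DUSP6* siRNA. SCR replicate 3 and DUSP6_KD replicate 1 were separated by less than 0.01, so the groups only just did not overlap. The mean rose from 15.0 ± 4.67 to 22.9 ± 2.49 (SD, n = 3), with a log2 fold change of 0.60 (0.18 to 1.03, limma adjusted p = 0.0273). The call was lost without a filter on low values (adjusted p = 0.0649, limma) and without SCR replicate 1 (0.0887), SCR replicate 2 (0.0847), DUSP6_KD replicate 2 (0.112) or DUSP6_KD replicate 3 (0.0714), in a range from 8.40e-04 to 0.112. Exons of *RBIS* cover 16.6% of the exon sequence of *E2F5*, so its value is uncertain. *RBIS* itself was at 36.5 ± 4.59 and 38.2 ± 2.57 (SD, n = 3), and its log2 fold change was 0.07 (limma adjusted p = 0.652).

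The atypical E2Fs took 3 courses. *E2F6* (Entrez gene 1876, chromosome 2 from 11444375 to 11466161), the Polycomb-linked repressor, had 15.9, 12.6 and 20.4 with scrambled siRNA and 23.8, 25.7 and 24.4 with *DUSP6* siRNA. All *DUSP6* siRNA libraries were above all scrambled ones. The mean rose from 16.3 ± 3.90 to 24.6 ± 0.982 (SD, n = 3), with a log2 fold change of 0.59 (0.24 to 0.95, limma adjusted p = 0.0138). Without DUSP6_KD replicate 2 the limma adjusted p was 0.0613, the highest of a range that began at 0.0013.

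*E2F7* (Entrez gene 144455, chromosome 12 from 77021251 to 77065569) had 29.5, 33.8 and 24.0 with scrambled siRNA and 30.6, 29.6 and 31.1 with *DUSP6* siRNA. The *DUSP6* siRNA libraries lay inside the scrambled range. Its log2 fold change was 0.07 (-0.21 to 0.36, limma adjusted p = 0.655), and it was -0.05 without SCR replicate 3. *E2F8* (Entrez gene 79733, chromosome 11 from 19224063 to 19241655), its closest relative and like it a repressor of *E2F1* in the S and G2 phases, had 42.5, 28.6 and 35.4 with scrambled siRNA and 18.4, 16.8 and 17.9 with *DUSP6* siRNA. The groups were far apart. Its mean fell by 50.2%, from 35.5 ± 6.96 to 17.7 ± 0.777 (SD, n = 3), with a log2 fold change of -0.95 (-1.27 to -0.63, limma adjusted p = 8.43e-04), and the call held in each of the 14 alternatives.

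Of the DP partners, *TFDP1* (Entrez gene 7027, chromosome 13 from 113584688 to 113641473), the main partner of the E2Fs, had 80.5, 67.7 and 91.7 with scrambled siRNA and 67.7, 66.2 and 64.5 with *DUSP6* siRNA. SCR replicate 2 lay just under DUSP6_KD replicate 1, so the groups overlapped by that pair alone. The log2 fold change was -0.26 (-0.52 to 0.00, limma adjusted p = 0.0963). Without SCR replicate 2 it was -0.37 and passed the threshold (limma adjusted p = 0.0153, in a range up to 0.261).

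*TFDP2* (Entrez gene 7029, chromosome 3 from 141944428 to 142149544), the second partner, had 19.8, 15.2 and 14.7 with scrambled siRNA and 13.0, 14.6 and 14.4 with *DUSP6* siRNA. The groups did not overlap, by a gap of about 0.1, and SCR replicate 1 stood apart from the rest. The log2 fold change was -0.22 (-0.52 to 0.08, limma adjusted p = 0.202). A two-sided exact permutation test over the 6 libraries gave p = 0.1 for *DUSP6* and the 7 members without overlap, the smallest p that 3 libraries against 3 allow, and 0.2 for *TFDP1*, 0.7 for *E2F7* and 0.8 for *E2F4*.

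**Figure D3:**
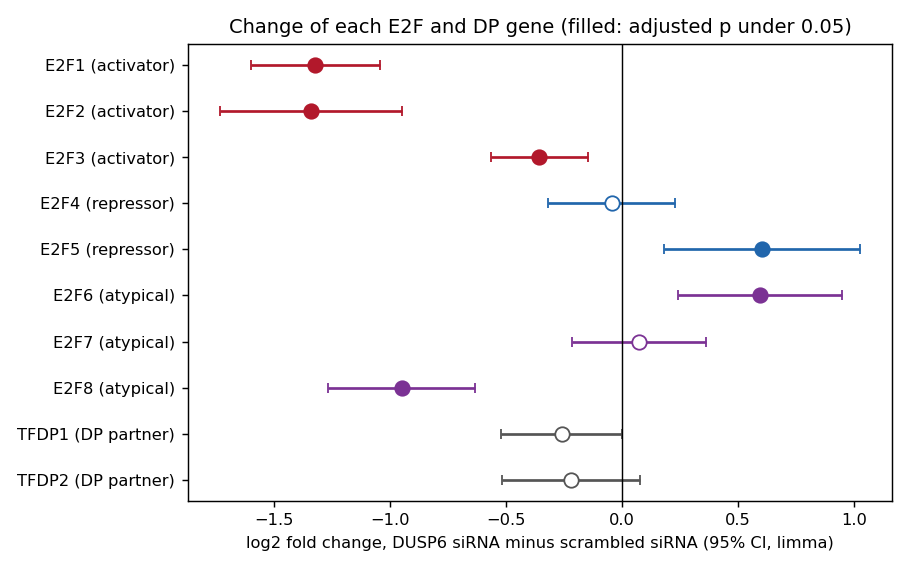
Log2 fold change (*DUSP6* siRNA minus scrambled siRNA) of each member with its 95% confidence interval from limma, filled where the adjusted p was under 0.05. The activators lie left of 0, at -1.32, -1.34 and -0.35, *E2F8* lies left at -0.95, and *E2F5* and *E2F6* lie right at 0.60 and 0.59.

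The coefficient of variation between libraries ran from 7.07% for *E2F3* to 31.0% for *E2F5* with scrambled siRNA and from 0.813% for *E2F3* to 13.0% for *E2F1* with *DUSP6* siRNA. It was lower with *DUSP6* siRNA in each member but *E2F1*, where it was 11.5% with scrambled and 13.0% with *DUSP6* siRNA. Counting error alone gave 0.949% to 4.02% for a member in a library. With *DUSP6* siRNA the spread of *E2F3* was below its counting error of 2.02% to 2.61%, and that of *E2F7*, at 2.66%, was close to its 2.03% to 2.57%. SCR replicate 3 had the highest scrambled value of *E2F1* to *E2F6* and of *TFDP1*, while SCR replicate 1 had the highest *E2F8* and *TFDP2*. SCR replicate 3 was the lowest scrambled library for *E2F7* and *TFDP2*, and SCR replicate 2 was the highest for *E2F7* only.

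Levels of different genes were compared per kb of exon sequence (the union of GENCODE exons of a gene). With scrambled siRNA, *E2F1* had the highest level at 44.7 ± 5.13 per kb (SD, n = 3), above *E2F4* at 24.9 ± 3.75 and *TFDP1* at 21.4 ± 3.20, which overlapped each other. *E2F2* (10.7 ± 2.71), *E2F8* (8.59 ± 1.68) and *E2F3* (7.39 ± 0.522) followed, each overlapping the next. Below them *E2F7* (4.63 ± 0.781), *E2F6* (4.00 ± 0.959) and *E2F5* (2.51 ± 0.779) also overlapped in sequence, and *TFDP2* was lowest at 1.39 ± 0.237.

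With *DUSP6* siRNA the order changed. *E2F4* had the highest level at 24.0 ± 1.39 per kb (SD, n = 3), above *E2F1* at 17.7 ± 2.31 and *TFDP1* at 17.7 ± 0.432, which overlapped. *E2F6* (6.06 ± 0.242), *E2F3* (5.73 ± 0.0466) and *E2F7* (4.84 ± 0.129) came next and did not overlap their neighbors in this order. *E2F8* (4.28 ± 0.188), *E2F2* (4.03 ± 0.465) and *E2F5* (3.81 ± 0.415) overlapped in sequence, and *TFDP2* was again lowest at 1.17 ± 0.0736. Places depend on the length used. Per kb of the MANE transcript, 1 chosen transcript a gene, *E2F1* at 44.7 overlapped *E2F4* at 42.4 with scrambled siRNA, and with *DUSP6* siRNA *E2F4* stood at 40.8, *TFDP1* at 25.1 and *E2F1* at 17.7. *E2F5* moved most, since its MANE transcript is 1.96 kb of 6.00 kb of exon sequence, and it was 7.66 with scrambled and 11.6 with *DUSP6* siRNA on that scale. The plot of levels per kb shows both groups for each gene.

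**Figure D4:**
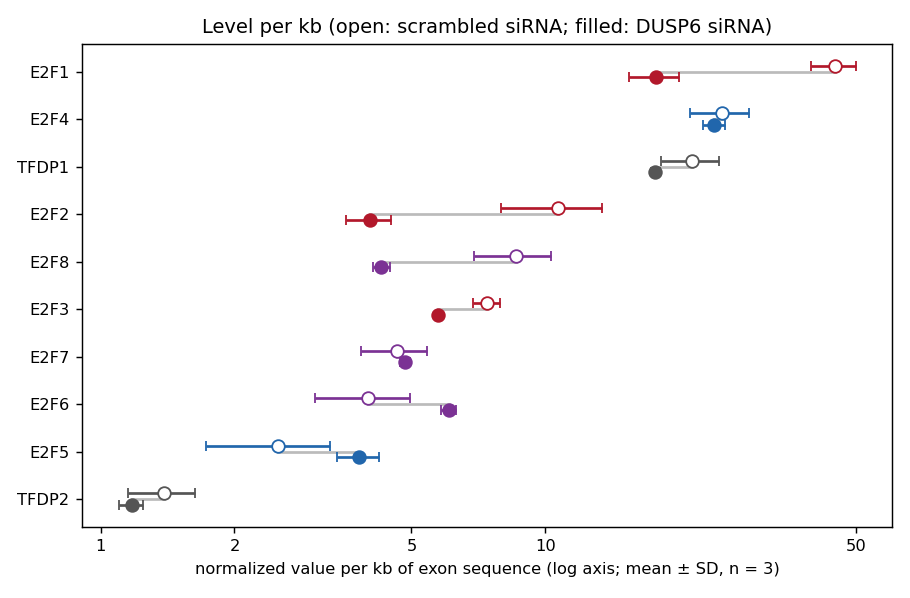
Normalized value per kb of exon sequence (log axis, mean ± SD, n = 3) of each member, ordered by the level with scrambled siRNA, open for scrambled and filled for *DUSP6* siRNA. *E2F1* leads with scrambled siRNA at 44.7 and *E2F4* with *DUSP6* siRNA at 24.0, and the distances between open and filled points are longest for *E2F1*, *E2F2* and *E2F8*.

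Ratios within a library do not depend on its depth or scaling, and a change in a ratio between 2 genes does not depend on gene length. The log2 ratio of *E2F1* to *E2F4* per kb was 0.75, 0.94 and 0.86 in SCR replicates 1 to 3 and -0.27, -0.50 and -0.57 in DUSP6_KD replicates 1 to 3. On this scale *E2F1* was above *E2F4* in each scrambled library and below it in each *DUSP6* siRNA library, a mean ratio of 1.81 against 0.738. Per kb of the MANE transcript the mean ratio was 1.06 with scrambled siRNA, with SCR replicate 1 just below 1 at 0.985, and 0.433 with *DUSP6* siRNA. The log2 ratio of *E2F2* to *E2F4* differed by -1.33 between the group means and that of *E2F3* to *E2F4* by -0.32, without overlap. *E2F3* to *E2F4* was -1.94, -1.52 and -1.77 with scrambled and -2.09, -1.96 and -2.14 with *DUSP6* siRNA, so this gap was narrow.

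*E2F1* stood at a mean of 18.5 times the level of *E2F5* with scrambled siRNA and 4.72 times with *DUSP6* siRNA, or 6.06 and 1.55 times with MANE lengths. It stood at 11.4 and 2.93 times the level of *E2F6*, or 9.06 and 2.33 times with MANE lengths. *E2F1* to *TFDP1* had log2 ratios of 1.07, 1.13 and 1.02 with scrambled and 0.17, -0.16 and -0.02 with *DUSP6* siRNA. The mean ratio was 2.10 and 1.00, or 1.48 and 0.705 with MANE lengths. Within the *E2F7* and *E2F8* pair, the log2 ratio of *E2F8* to *E2F7* was 1.13, 0.37 and 1.16 with scrambled and -0.13, -0.21 and -0.20 with *DUSP6* siRNA. *E2F8* was above *E2F7* in each scrambled library and below it in each *DUSP6* siRNA library, with either length.

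Summed per kb, the activators made 55.7%, 60.1% and 59.7% of all E2F values in SCR replicates 1 to 3 and 41.6%, 37.8% and 37.4% in DUSP6_KD replicates 1 to 3. The share of the repressors was 25.4% on average with scrambled and 39.5% with *DUSP6* siRNA, and that of the atypical E2Fs 16.1% and 21.6%. *E2F1* alone accounted for 41.6% and 25.1%, and *E2F4* for 23.1% and 34.0%, or for 33.6% and 18.0%, and 31.8% and 41.6%, with MANE lengths. The share of *E2F4* was higher although its own level was not called different, since the sum of the others was lower. The log2 ratio of summed activators to summed repressors was 1.05, 1.34 and 1.21 with scrambled and 0.14, -0.07 and -0.13 with *DUSP6* siRNA, and that of activators to atypical E2Fs was 1.67, 1.89 and 2.04 against 1.01, 0.75 and 0.79. With MANE lengths the activator share was 47.7% with scrambled and 28.4% with *DUSP6* siRNA, and the repressor share 37.4% and 53.6%. The mean ratio of summed activators to repressors was 2.31 and 0.989, or 1.28 and 0.531 with MANE lengths. These sums rest largely on *E2F1* and *E2F4*, and they get no test.

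The genes that bind, control or follow E2F factors were read from 7 lists, each set beside all genes tested, of which 24.7% were lower and 19.7% higher with a median log2 fold change of -0.01. Over the lists together 50 genes were lower and 7 higher, and 33 of the lower genes and 0 of the higher ones were in the list of 35 G1/S genes. The plot of the lists shows each gene. The lists are described by their counts and medians and were not tested as sets.

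Pocket proteins hold E2Fs in check, and the MuvB core joins them to *E2F4* in the DREAM complex or joins *MYBL2* as an activator of mitotic genes. Of 10 such genes 5 were lower and 1 higher (median log2 fold change -0.36). *MYBL2*, itself an E2F target, fell from 320 ± 65.4 to 137 ± 15.5 (SD, n = 3), and its log2 fold change was -1.21 (limma adjusted p = 3.65e-04). Among MuvB subunits *LIN9* (-0.56, limma adjusted p = 0.00579), *LIN54* (-0.54, 0.0193) and *LIN52* (-0.36, 0.0160) fell. *LIN37* rose (0.58, limma adjusted p = 0.00469), and *RBBP4* (0.11) did not pass. *RBL1*, the partner of *E2F4* in cycling cells, fell from 35.5 ± 3.07 to 27.5 ± 0.855 (SD, n = 3), while *RBL2*, its counterpart in resting cells, had a log2 fold change of -0.22 that did not pass. *RB1* was 133 ± 15.5 with scrambled and 164 ± 18.5 with *DUSP6* siRNA (SD, n = 3), and its log2 fold change was 0.30 (limma adjusted p = 0.0625). The count of lower genes was 2 without DUSP6_KD replicate 1 and 3 without DUSP6_KD replicate 2 or 3. The count of higher genes was 2 without SCR replicate 1, under quantile normalization and by edgeR.

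Kinases and cyclins that phosphorylate RB release the activators. Of 8 genes 7 passed the filter. The gene under it, *CCND2*, was at 0 in each scrambled library and at 0.344, 0.318 and 0.355 in DUSP6_KD replicates 1 to 3. Of the 7 tested genes 3 were lower and 0 higher by limma (median -0.13). At an unadjusted p under 0.05 3 were lower and 0 higher, and edgeR called 3 lower and 0 higher. *CDK2*, the partner of cyclins E and A, fell from 72.1 ± 4.44 to 43.0 ± 2.13 (SD, n = 3), and its log2 fold change was -0.73 (limma adjusted p = 3.43e-04). *CCND1* and *CCND3*, which encode D cyclins, fell by 0.61 and 0.54 on the log2 scale (limma adjusted p = 0.00121 and 0.0112). *CCNE1* and *CCNE2*, E2F targets that code for E cyclins, had log2 fold changes of -0.12 and -0.13 that did not pass. Without the filter on low values, and without SCR replicate 1 or SCR replicate 3, the number of higher genes was 1.

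Of 6 genes known to turn over or switch off E2F proteins, 2 were lower and 1 higher (median -0.17). *CCNF*, the ligase subunit cyclin F that marks activator E2Fs for degradation, fell from 124 ± 15.5 to 75.1 ± 4.01 (SD, n = 3), and its log2 fold change was -0.70 (limma adjusted p = 9.72e-04). *CCNA2*, cyclin A, whose kinase ends DNA binding by *E2F1*, fell by 0.54 (limma adjusted p = 0.0145, but 0.0613 without DUSP6_KD replicate 2). *FZR1*, an activator of the APC/C ligase, rose by 0.28 (limma adjusted p = 0.0403), a call that was lost in 6 of 14 alternatives, among them those without SCR replicate 1 (0.0958) or DUSP6_KD replicate 1 (0.118), 2 (0.145) or 3 (0.0716), over a range from 0.0161 to 0.145.

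*E2F6* acts within the Polycomb complex PRC1.6. Of 10 subunit genes 4 were lower and 1 higher (median -0.01). Over all genes tested 24.7% were lower and 19.7% higher, with a median of -0.01. *RYBP* fell from 175 ± 29.8 to 90.8 ± 0.978 (SD, n = 3), and its log2 fold change was -0.92 (limma adjusted p = 4.19e-04). Its relative *YAF2* fell by 0.46 (limma adjusted p = 0.0104). *MAX*, the DNA-binding partner of *MGA*, fell by 0.47 (limma adjusted p = 0.0125, but 0.0580 without DUSP6_KD replicate 2, where 2 genes of the list stayed lower). *RING1*, the ubiquitin ligase, rose by 0.38, while *PCGF6* (0.02) and *MGA* (0.07), which define the complex, did not pass. Of 7 germline genes known to be silenced by *E2F6*, 2 passed the filter and 4 were below 0.1 in each library. *SMC1B*, a meiotic cohesin subunit, fell from 114 ± 31.8 to 52.1 ± 5.86 (SD, n = 3), and its log2 fold change was -1.08 (limma adjusted p = 0.00215), and *STAG3* had 0.06. Without the filter on low values 2 of the germline genes were lower.

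Of 35 G1/S genes known as targets of activator E2Fs, 33 were lower, 0 were higher by limma and the median log2 fold change was -0.70. Their summed value ranged from 3703 to 4456 with scrambled siRNA and from 2256 to 2603 with *DUSP6* siRNA, without overlap. *RRM2*, a subunit of ribonucleotide reductase, fell from 532 ± 154 to 171 ± 21.0 (SD, n = 3), and its log2 fold change was -1.60 (limma adjusted p = 2.56e-04). *UHRF1*, which brings DNA methylation to new strands, had a log2 change of -1.24 (limma adjusted p = 1.24e-04). The 6 subunits of the MCM helicase, *MCM2* to *MCM7*, fell by 0.39 (*MCM7*) to 0.86 (*MCM2*) on the log2 scale. *GINS3* of the CMG helicase (-0.02) and the phosphatase gene *CDC25A* (-0.04) were the pair that did not pass, and *CDC25A* varied from 44.6 to 88.3 among scrambled libraries. At an unadjusted p under 0.05 33 were lower and 0 higher, and edgeR called 32 lower and 0 higher. Between 29 and 33 of these genes were lower in each alternative.

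Of 12 apoptosis genes described as targets of *E2F1*, 11 passed the filter, with 2 lower and 4 higher (median 0.04). *PMAIP1*, which encodes the BH3-only protein NOXA, rose from 1.42 ± 0.153 to 9.56 ± 2.61 (SD, n = 3), and its log2 fold change was 2.10 (limma adjusted p = 4.70e-05). *BBC3*, which encodes PUMA, rose from 2.60 ± 0.536 to 5.59 ± 0.987 (0.87, limma adjusted p = 0.00227), and *BCL2L11*, which encodes BIM, rose by 0.62. *TP73*, a known target of *E2F1*, fell from 20.0 ± 2.37 to 11.1 ± 0.905 (-0.80, limma adjusted p = 9.16e-04), and *DIABLO* fell by 0.71. *APAF1* (0.30) did not pass. *PMAIP1* and *BBC3* have low values, so the added 1 makes their fold changes smaller, and both leave the test when a mean value of 10 is required, which leaves 2 genes higher.

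**Figure D5:**
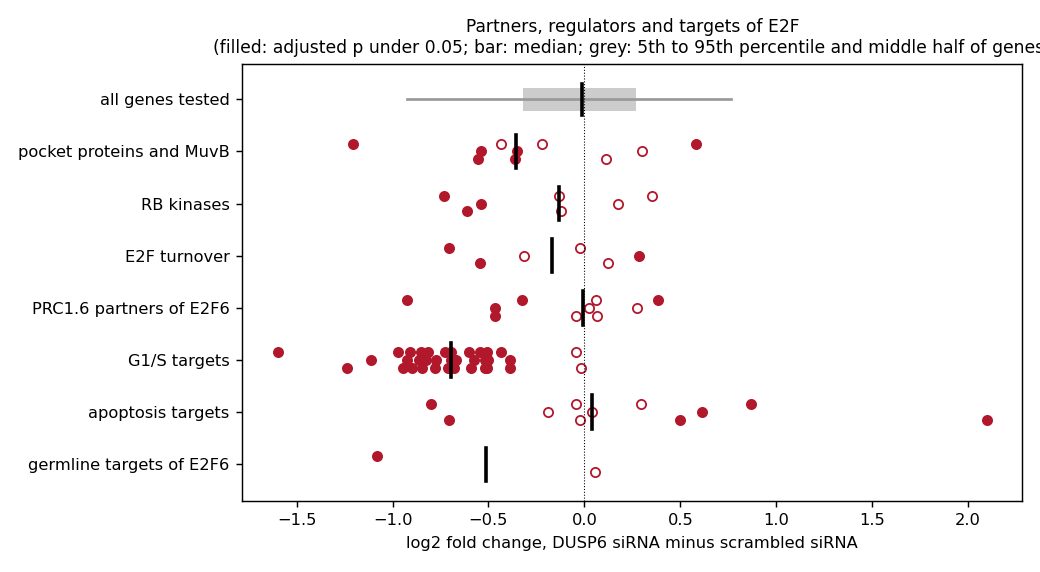
Log2 fold change (*DUSP6* siRNA minus scrambled siRNA) of each tested gene in the 7 lists, filled where the limma adjusted p was under 0.05, with the list's median as a bar and all genes tested in grey (5th, 25th, 75th and 95th percentiles at -0.93, -0.32, 0.27 and 0.77). The G1/S targets lie nearly all left of 0 with a median of -0.70, while the apoptosis targets lie on both sides with a median of 0.04.

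The genes with a profile most like that of a member were found among the 9551 other genes with a symbol whose mean value reached 10, by the root mean square difference of log2 values over the 6 libraries, each centered on its own mean. Closest to *E2F1* were *AIF1L* (0.0584), *MAB21L4* (0.0593) and *UHRF1* (0.0635). *AIF1L* fell from 35.8 ± 4.91 to 13.8 ± 1.20 (SD, n = 3). Closest to *E2F8* were *PRPS1* (0.0460), which makes the ribose precursor of nucleotides, *CA8* (0.0466) and the replication gene *MCM10* (0.0570). For *E2F2* the closest genes, *SEMA3F* (0.0900), *IGSF9* (0.0965) and *SELENOP* (0.112), were less close than for any other member. *SNRNP200* (0.0208), *SEPHS1* and *FDPS* were closest to *E2F3*, *PELI2* (0.0519), *COX7C* and *TRAPPC4* to *E2F5*, and *ZNF687* (0.0410), *KAT2A* and *SNX11* to *E2F6*. *E2F4* had *RPP25*, *CLEC2D* and *TAF1A* as its closest genes, *E2F7* had *ZNF426*, *ANKRD26* and *PPIB*, *TFDP1* had *RBM15B* (0.0188), *ACTR5* and *LSM2*, and *TFDP2* had *ARMC1*, *RAD50* and *NDUFA6*. Among the 3 closest genes of the members, *UHRF1* and *MCM10* were the genes that also stood in the G1/S list. The search used the same 6 libraries, so a gene close to a member shares its group difference by construction.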

How the data were processed

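RNA of 6 libraries was sequenced by the authors after a stranded mRNA preparation, aligned to hg38 with Rsubread and assigned to RefSeq gene models with default settings, which do not use strand. Per the labels, bcl2fastq and edgeR were also used. The authors deposited a table of normalized signal, linear in scale, for each gene in each library. All values could be turned back into whole reads (within 0.001) by dividing by 1 step per library, and the steps held the factors of edgeR's TMM method. These factors were 0.881, 0.923 and 0.968 in SCR replicates 1 to 3 and 1.09, 1.08 and 1.08 in DUSP6_KD replicates 1 to 3. They lower values with *DUSP6* siRNA relative to scrambled siRNA. Fold changes and their median over all genes depend on this scaling, and no alternative scaled by total reads alone.

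Values were taken as log2(value + 1), which makes fold changes of low genes smaller. The 12862 of 22807 genes whose mean value reached 1 were compared between the groups by limma 3.58.1 in R 4.3.3 (eBayes with a trend, Benjamini-Hochberg adjustment, calls at an adjusted p under 0.05). Fold changes are *DUSP6* siRNA minus scrambled siRNA. Depth ran from 45546981 to 85729785 reads a library. The alternatives left out each library, added 0.1 in place of 1, dropped the filter or set it at 10, scaled by median ratios or quantiles, blocked on the replicate number, dropped the eBayes trend, or ran the quasi-likelihood test of edgeR 4.0.16 on recovered reads. MANE lengths were chosen after seeing the data. limma and edgeR were tested on simulated data.

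All members, *DUSP6*, the 3 called genes of each list with the largest change without overlap, and the 3 closest profiles of each member were named by rule. Other genes were named after their values were seen, and some genes of the lists are not reported here by name. The members and lists were chosen with earlier results of these data known. Promoter windows and gene positions came from RefSeq on GRCh38.p14, exon and MANE lengths from GENCODE v44 on hg38, and genes were matched by Entrez ID or symbol. Transcript forms and proteins were not analysed here.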

Additional observations from a re-analysis of the deposited data

How the results depend on the processing

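Over the 14 alternatives of the fit, *E2F1*, *E2F2*, *E2F8* and *DUSP6* kept their calls, with log2 fold changes of -1.42 to -1.24, -1.52 to -1.16, -1.09 to -0.81 and -2.22 to -1.76 when libraries were left out in turn. The number of members called higher was 1 without a filter on low values, since *E2F5* missed the threshold with more genes tested, and it ranged from 0 (without DUSP6_KD replicate 2) to 2 when libraries were left out. The number called lower ranged from 3 to 5. Over all genes the number called higher was 1639 where a mean value of at least 10 was required, which left 9562 genes tested, and it ranged from 1535 (without DUSP6_KD replicate 2) to 3213 (without SCR replicate 3). The direction of 2 members that were not called was not stable. *E2F4* had a log2 fold change of 0.0645 under quantile normalization and -0.17 to 0.0269 when libraries were left out, and *E2F7* had -0.0528 to 0.19. The causes were not tested.

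A fit with the replicate number as a block called 4 members lower and 2 higher, and 3096 genes lower and 2495 higher over all genes. It changed no call of a member and took that of *FZR1* (limma adjusted p = 0.0642). The deviations of libraries with the same number had correlations of 0.0050, 0.0868 and -0.0764 over genes. SCR replicate 1 was closest to DUSP6_KD replicate 3 (0.132), SCR replicate 2 to DUSP6_KD replicate 2 (0.0868) and SCR replicate 3 to DUSP6_KD replicate 1 (0.0648). Correlations this small cannot settle whether the numbers mark pairs.

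edgeR's quasi-likelihood test called 2969 genes lower and 2771 higher. The 3 libraries a group limit the precision of single genes near the threshold, such as *E2F3*, *E2F5*, *E2F6* and *TFDP1*.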

Other observations

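Genes other than the members were also sorted by the E2F letters in their promoters. Of the 10119 tested genes with a RefSeq window, members left out and the first listed window taken, 24.6% were lower and 19.7% higher with *DUSP6* siRNA, with a median log2 fold change of -0.01. Among the 9085 genes without E2F letters 24.1% were lower and 19.9% higher. Among the 973 genes with 1 match 28.3% were lower and 18.8% higher (median -0.07). Among the 61 genes with 2 or more matches, 25 (41%) were lower and 2 (3.28%) higher, with a median of -0.28. The shares lower with 0, 1 and at least 2 matches were 24.2%, 27.8% and 32.4% for CHR and 23.7%, 24.7% and 28.7% for CCAAT. Letters of different motifs occur together in many promoters and depend on base composition, and these shares were not tested.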
